A study of Mus musculus with 6 samples.

Results

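The 42 genes described here make, sulfate and trim glycosaminoglycans, the long sugar chains of proteoglycans and the free chain hyaluronan. They were chosen by name from the enzymes and transporters of linker, chondroitin, dermatan, heparan and hyaluronan synthesis and sulfation. The choice was made with earlier results of these data known. All 42 were found among the 55401 genes of the deposited table, each in 1 row. The values come from RNA-seq of poly(A) RNA from primary mouse chondrocytes, cartilage cells taken into culture, in 3 Nf2-knockout and 3 control libraries. The series describes the cultures as Nf2f/f cells with and without knockout of Nf2, grown with differentiation. The names of all 6 libraries carry the label D7, and the names do not say what it marks. Nf2 encodes merlin, a membrane-associated protein upstream of the Hippo kinases, and f/f marks the floxed allele, which the control cells carry undeleted. How the deletion was brought about, and whether replicates are separate animals or cultures, is not given in the labels, so p-values speak only for the spread among these 6 libraries, and that spread may be technical. A treatment field of the Nf2-knockout samples also names overexpression of TCF21, but the only reads of Tcf21 in the series were 2 counts in Nf2-knockout replicate 2.

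A sulfated glycosaminoglycan is built on a core protein in the Golgi. Enzymes first attach a short linker of xylose, galactose and glucuronic acid. The chain then becomes chondroitin when N-acetylgalactosamine is added next, or heparan when N-acetylglucosamine is added next. Sulfotransferases decorate the growing chain with sulfate from the donor PAPS, and epimerases turn part of its glucuronic acid into iduronic acid, which makes dermatan sulfate out of chondroitin sulfate. Hyaluronan is made at the plasma membrane, on no core protein and without sulfate. In cartilage, the chondroitin sulfate chains of aggrecan hold the water that resists compression, and heparan sulfate binds growth factors such as FGFs, BMPs and hedgehog proteins.

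Total counts lay between 50906043 and 63748798 in the 3 Nf2-knockout libraries and between 55516143 and 61103617 in the 3 control libraries. Nf2 itself averaged 95.3 ± 6.59 CPM (counts scaled to library size) over the Nf2-knockout libraries, against 126.8 ± 5.32 CPM over the controls (SD, n = 3 each), a log2 fold change of −0.41 (SE 0.0866, edgeR adjusted p = 0.0305), so Nf2 transcripts remained at a lower level. Which part of Nf2 is deleted is not given in the labels. That call was lost without any 1 of the 6 libraries (adjusted p from 0.0518 to 0.123). All 16 chondrocyte markers were detected and tested (Comp, Col2a1 and Col11a1 the most abundant), with a sum of 1070 to 2005 CPM in Nf2-knockout against 902 to 1356 CPM in control libraries and 1 of them, Col2a1, higher. Their median log2 fold change was −0.064. DESeq2 called 2 of the 16, and 4 had an unadjusted p under 0.05 in edgeR. The 12 macrophage markers (led by Lyz2, Cd68 and C1qb) summed to 45.3 to 99.5 CPM in Nf2-knockout against 134 to 357 CPM in control libraries, and 4 of the 11 tested fell. The 10 fibroblast markers (led by Lum, Col1a1 and Col3a1) summed to 7630 to 9720 CPM against 11086 to 14445 CPM, with 3 of 9 tested lower. The 10 pericyte and smooth muscle markers (led by Acta2, Pdgfrb and Tagln) summed to 644 to 1083 CPM against 449 to 509 CPM, with 3 of 10 higher. The 8 osteoblast markers (led by Spp1, Bglap2 and Ibsp, and mostly Spp1) summed to 8309 to 10516 CPM against 8203 to 11125 CPM. Of these 8, edgeR called 0 and DESeq2 2, and 3 had an unadjusted p under 0.05 in edgeR. Of all the genes each tested, edgeR called 9.29% and DESeq2 12.8%, and 24.8% had an unadjusted p under 0.05 in edgeR. Ptprc, Aif1 and Pi16 were at 0 in at least 1 Nf2-knockout library, and no marker was at 0 in all 6 libraries. The part of these marker shifts in the results below was not tested. In cultures sequenced in bulk, fewer cells of a type and less RNA per cell cannot be told apart.

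Nf2-knockout libraries had less RNA of the main chondroitin 4-O-sulfotransferase and of the enzyme that adds a further sulfate to 4-sulfated chondroitin. These 2 falls passed the test in every fit that left out 1 library. RNA of a chondroitin 6-O-sulfotransferase, of an enzyme that starts the chondroitin chain and of a PAPS synthase was higher. RNA of a dermatan epimerase and of a heparan 6-O-sulfotransferase was lower. Each of these other calls was lost in at least 1 such fit. Of the 42 genes, 41 had enough counts to be tested, and 7 of them (17.1%) changed, against 9.29% of the 18218 genes tested in all. Because the members were chosen with earlier results of these data known, such shares are description only. The 3 rises were Chst7, Csgalnact1 and Papss1 (7.32% of the 41, where 4.11% of all genes rose), and the 4 falls were Chst15, Chst11, Dsel and Hs6st1 (9.76%, where 5.18% of all genes fell). Called here means an adjusted p below 0.05 in edgeR's quasi-likelihood test on the counts, with Benjamini-Hochberg adjustment over all tested genes. Fold changes are given on the log2 scale, with Nf2-knockout on top. The median log2 fold change of the 41 was −0.031, beside −0.010 for all tested genes, with 20 values above 0 and 21 below. The groups' CPM ranges were apart for 17 of the 41 (41.5%), where they were apart for 32.9% of all tested genes. Of these, 9 were higher (15.5% of all genes were) and 8 lower (17.4% of all genes were). On the deposited FPKM, limma-trend fitted 35 of the members and called 5 higher and 3 lower. It called 7.67% of all genes higher and 4.5% lower, with a median log2 fold change of 0.093 over all genes. DESeq2 called 12.8% of all the genes it tested.

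**Figure D1:**
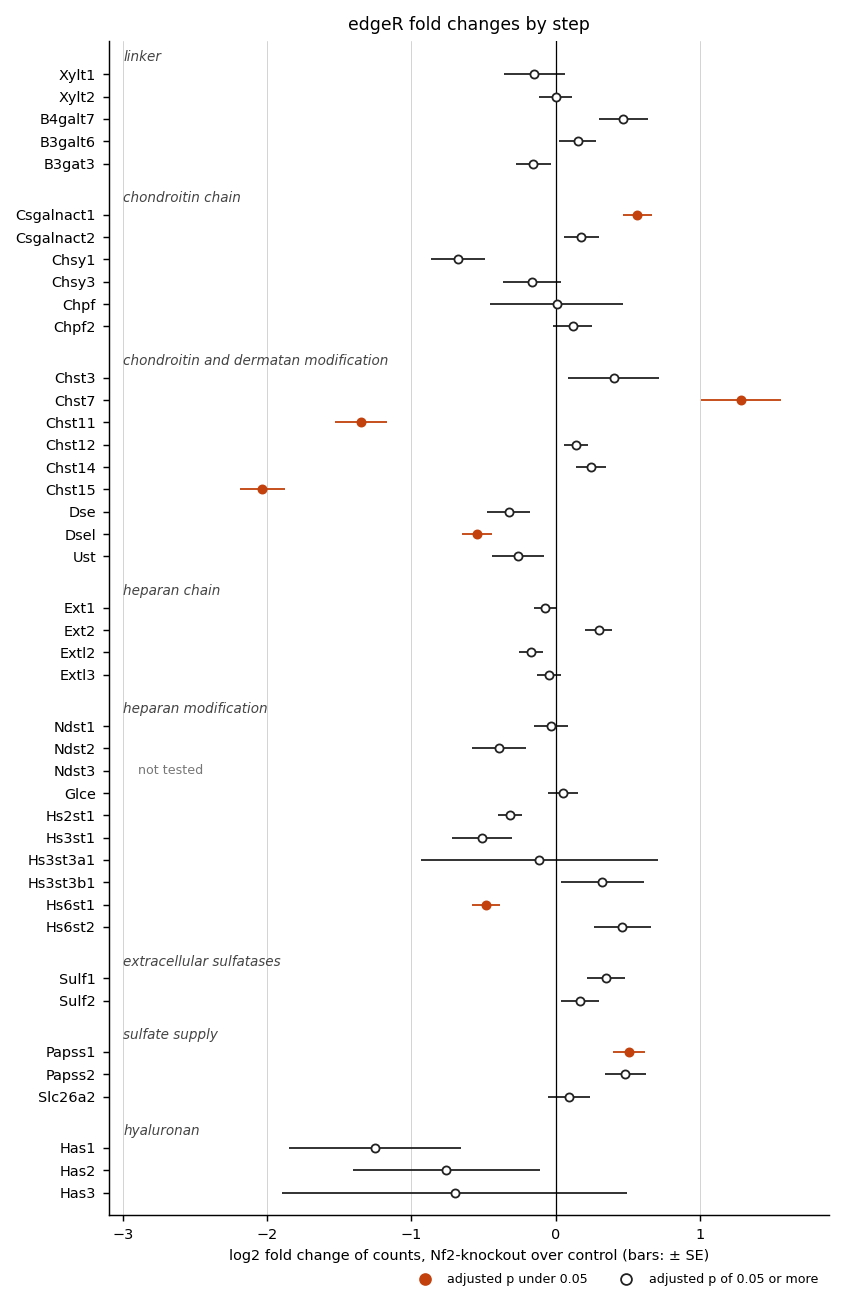
Log2 fold changes of counts, Nf2-knockout over control, for the 41 tested genes in order of their step, with bars of ± SE from edgeR (3 libraries in each group). Filled points passed the test, and they run from −2.04 for Chst15 to 1.29 for Chst7.

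The levels of the members differed widely. FPKM, which divides by transcript length and depth, allows genes to be set beside each other. By mean FPKM over the 6 libraries 16 of the tested members were above 10 and 7 were below 1. The most abundant were Chpf at 36.1, Chst11 at 32.4 and Sulf2 at 27.3 FPKM, and the least abundant were Ndst3 at 0.0088 and Has3 at 0.043 FPKM. Of the 16 members above 10 FPKM, 3 passed the test, namely Chst11, Csgalnact1 and Papss1, where 9.29% of all tested genes did. Ndst3, a heparan N-sulfotransferase best known from brain, was the member too low to test, with 8 counts or fewer in every library.

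**Figure D2:**
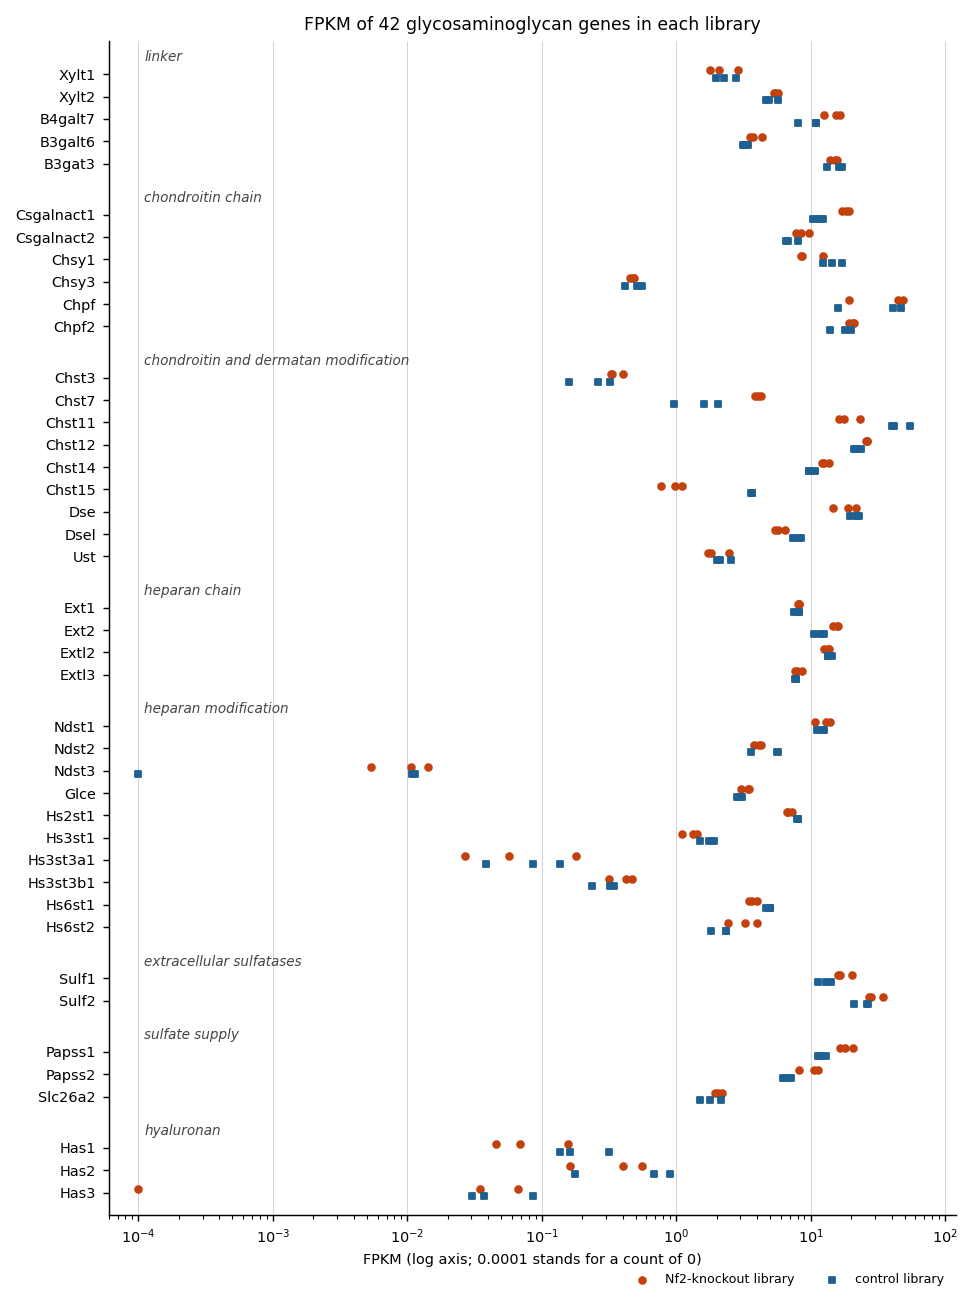
FPKM of the 42 genes (log axis) in each Nf2-knockout library (circles) and each control library (squares), grouped by step. Chst15, Chst11 and Chst7 show the widest gaps between groups among the genes that passed the test, and the hyaluronan synthases lie below 1 FPKM in every library.

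The linker enzymes gave no call. Xylt1 and Xylt2, the xylosyltransferases that put the xylose on a serine of the core protein, had log2 fold changes of −0.15 (SE 0.211) and 0.00024 (SE 0.117). B3galt6, the galactosyltransferase that adds the second galactose, stood at 3.87 ± 0.396 FPKM in Nf2-knockout and 3.25 ± 0.135 FPKM in control libraries (log2 fold change 0.15). B3gat3, the glucuronosyltransferase that completes the linker and the most abundant of the step, had 15.2, 15.7 and 14.02 FPKM in Nf2-knockout and 13.3, 16.2 and 17.1 FPKM in control libraries, and the groups overlap. B4galt7, which adds the first galactose, had 16.6, 15.5 and 12.5 FPKM in Nf2-knockout and 8.04, 10.9 and 11.05 FPKM in control libraries. All 3 Nf2-knockout values lie above the control values, but its log2 fold change of 0.47 (SE 0.169) did not pass (adjusted p = 0.138). edgeR and DESeq2 each called 0 of the 5 linker genes, and 1 had an unadjusted p under 0.05 in edgeR, where 24.8% of all tested genes did.

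Of the 6 genes that build the chondroitin chain, 1 rose and none fell in edgeR, and DESeq2 called 2. Of all the genes each tested, edgeR called 9.29% and DESeq2 12.8%. Csgalnact1 (ENSMUSG00000036356, chromosome 8, 68356781 to 68735146, minus strand, GRCm38) encodes an N-acetylgalactosaminyltransferase that starts the chain, and mice lacking it have less chondroitin sulfate in cartilage. It had 18.5, 19.2 and 17.02 FPKM in Nf2-knockout and 10.4, 12.4 and 11.6 FPKM in control libraries, so the groups are well apart. Its counts rose 1.48-fold (log2 fold change 0.57, SE 0.102, adjusted p = 0.0189 in edgeR). The call held in 3 of 6 fits that left out 1 library. It was lost when the library left out was Nf2-knockout replicate 1, Nf2-knockout replicate 2 or control replicate 1, with adjusted p from 0.0501 to 0.0675 there. Its paralog Csgalnact2 stood at 8.65 ± 0.936 FPKM in Nf2-knockout and 7.12 ± 0.795 FPKM in control libraries (log2 fold change 0.18, adjusted p = 0.416), and the groups overlap.

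Chsy1, a chondroitin synthase that extends the chain and whose loss shortens digits in people and mice, had mostly lower values without passing the test. It had 8.57, 12.4 and 8.56 FPKM in Nf2-knockout and 12.3, 17.2 and 14.4 FPKM in control libraries, with Nf2-knockout replicate 2 about level with the lowest control. The log2 fold change was −0.68 (SE 0.189, adjusted p = 0.0731), with an adjusted p = 0.0136 in DESeq2 and 0.031 in edgeR without Nf2-knockout replicate 2. The ratio of Csgalnact1 to Chsy1 FPKM was 1.897 ± 0.312 in Nf2-knockout and 0.788 ± 0.0612 in control libraries. This ratio restates the values of these 2 genes and is no separate result. Chsy3 was much lower, at 0.473 ± 0.0151 FPKM against 0.495 ± 0.0721 FPKM. It made up 4.71% of the summed FPKM of the pair in Nf2-knockout and 3.31% in control libraries.

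The polymerizing factors, which work together with the synthases, showed no call either. Chpf, the most abundant member of all, had 44.4, 19.3 and 48.7 FPKM in Nf2-knockout and 15.97, 40.9 and 47.1 FPKM in control libraries. Each group holds 1 low library, Nf2-knockout replicate 2 and control replicate 1, and the spread within groups (a coefficient of variation of 42.4% in Nf2-knockout and 47.5% in control libraries, where the medians over the tested members were 11.3% and 11.6%) was far larger than the difference between them. Its log2 fold change of 0.0075 had an SE of 0.459, and leaving out 1 library moved it between −0.34 and 0.32, so a moderate change of Chpf in either direction was not detectable here. Chpf2 stood at 20.3 ± 0.85 FPKM in Nf2-knockout and 17.4 ± 3.04 FPKM in control libraries (log2 fold change 0.12), and shares 3739 bases with Smarcd3 on the other strand.

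Of the 9 genes that sulfate and epimerize chondroitin, 1 rose and 3 fell, where 9.29% of all tested genes changed. The CPM ranges of the groups were apart for 6 of the 9, where they were apart for 32.9% of all tested genes. The summed FPKM of the 9 genes was 86.7, 98.2 and 84.7 in the Nf2-knockout libraries, against 111.0, 123.3 and 110.7 in the controls, a difference that follows Chst11, the largest of them.

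Chst15 (chromosome 7, 132235780 to 132317228, minus strand, GRCm38) fell most. It encodes the sulfotransferase that adds a 6-O-sulfate to N-acetylgalactosamine already sulfated at the 4-position, which gives the highly sulfated chondroitin sulfate E. Its counts were 293, 512 and 467 in the Nf2-knockout libraries, against 1696, 1527 and 1600 in the controls. In FPKM these were 0.769, 1.11 and 0.974 against 3.69, 3.64 and 3.58, so the control libraries were nearly equal and no Nf2-knockout library came near the lowest of them. Chst15 was 4.1-fold lower in Nf2-knockout than in control (log2 fold change −2.04, SE 0.155, adjusted p = 0.00304), and the call held in each of 6 fits that left out 1 library, with log2 fold changes from −2.16 to −1.89. In the annotation of the deposited table the whole of Chst15 lies within Fgfr2 on the same strand. The counts of Fgfr2 were 10813, 17452 and 11238 in the Nf2-knockout libraries, against 17797, 20355 and 20366 in the controls (log2 fold change −0.67, adjusted p = 0.0726), and how reads in the shared stretch were assigned is not stated.

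Chst11 (chromosome 10, 82985498 to 83195900, plus strand, GRCm38) encodes the main chondroitin 4-O-sulfotransferase of cartilage, and mice without it have severe chondrodysplasia. It had 17.6, 23.5 and 16.3 FPKM in Nf2-knockout and 41.9, 54.8 and 40.2 FPKM in control libraries. The highest Nf2-knockout library lies well under the lowest control. In counts it was 2.55-fold lower in Nf2-knockout (log2 fold change −1.35, SE 0.18, adjusted p = 0.0082), and again the call held in each of 6 fits without 1 library (−1.53 to −1.20).

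For the other 4-O-sulfotransferases no fall was called. Chst12, the second chondroitin 4-O-sulfotransferase, had 25.8, 26.4 and 26.5 FPKM in Nf2-knockout and 23.7, 21.07 and 21.7 FPKM in control libraries, slightly higher in each Nf2-knockout library. The log2 difference was 0.14 (SE 0.0832, adjusted p = 0.349). Chst14, which sulfates dermatan at the 4-position and whose loss causes a form of Ehlers-Danlos syndrome in people, stood at 12.85 ± 0.763 FPKM in Nf2-knockout and 10.1 ± 0.621 FPKM in control libraries (log2 fold change 0.25, adjusted p = 0.202). Chst11 was thus the more abundant of Chst11 and Chst12 in every control library and the less abundant in every Nf2-knockout library. It had 0.684, 0.890 and 0.617 times the FPKM of Chst12 in Nf2-knockout libraries and 1.77, 2.60 and 1.85 times in control libraries. Its share of the summed FPKM of the 3 genes was 32.7% ± 3.85 in Nf2-knockout and 58.3% ± 4.95 in control libraries (SD, n = 3 each, exact two-sided permutation test p = 0.1, the smallest it allows). Counted as reads without regard to length, the share was 54.1% in Nf2-knockout and 77.2% in control libraries.

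**Figure D3:**
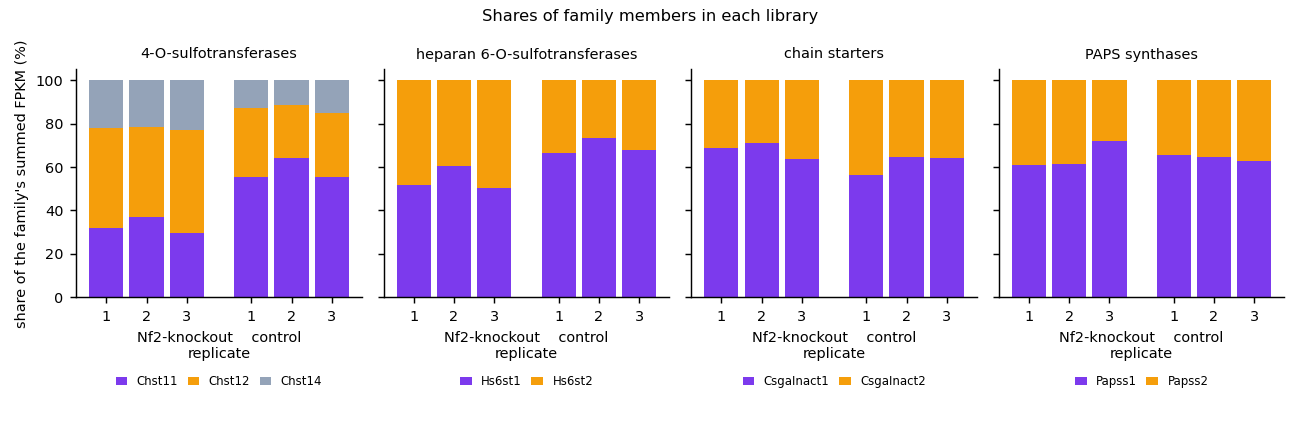
Shares of the summed FPKM in each library, in percent, for 4 families of related enzymes, with Nf2-knockout replicates left and control replicates right. Chst11 holds a smaller share in each Nf2-knockout library than in any control, as does Hs6st1, and the PAPS synthases keep similar shares (Papss1 64.8% in Nf2-knockout and 64.5% in control libraries on average).

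Chst7, a 6-O-sulfotransferase of chondroitin encoded on the X chromosome (20059560 to 20097521, plus strand, GRCm38), rose. It had 3.85, 4.08 and 4.25 FPKM in Nf2-knockout and 0.963, 1.62 and 2.04 FPKM in control libraries, and the controls varied more among themselves than the Nf2-knockout libraries did. The rise was 2.44-fold (log2 fold change 1.29, SE 0.279, adjusted p = 0.0337). The call stood with control replicate 1 or control replicate 3 left out and was lost without any other library (adjusted p from 0.079 to 0.0994). Chst3, the better known 6-O-sulfotransferase, whose human mutations cause a skeletal dysplasia, was nearly absent, at 0.353 ± 0.04 FPKM against 0.2485 ± 0.083 FPKM (log2 fold change 0.40, SE 0.316, adjusted p = 0.492). Per length Chst7 made up 92.0% ± 1.19 of the pair in Nf2-knockout and 84.8% ± 8.75 in control libraries. The FPKM of Chst11 was 4.58, 5.76 and 3.84 times that of Chst7 in Nf2-knockout libraries and 43.5, 33.7 and 19.7 times in control libraries. These are levels of RNA, and the sulfation of the chains themselves was not measured.

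Of the epimerases that turn chondroitin into dermatan, the less abundant one fell. Dsel (chromosome 1, 111858702 to 111864918, minus strand, GRCm38) had 5.40, 5.73 and 6.44 FPKM in Nf2-knockout and 8.50, 7.99 and 7.38 FPKM in control libraries (log2 fold change −0.54, SE 0.103, adjusted p = 0.0222). The groups are apart by less than 1 FPKM. Its call stood with the third replicate of either group left out and was lost without each other library (adjusted p from 0.0624 to 0.0956). Dse, the main epimerase, had 18.8, 21.6 and 14.8 FPKM against 19.6, 22.2 and 22.8 FPKM, overlapping groups and a log2 fold change of −0.33 (SE 0.151, adjusted p = 0.24). Ust, which adds 2-O-sulfate to iduronic acid, stood at 2.00 ± 0.393 FPKM against 2.23 ± 0.3 FPKM (log2 fold change −0.26, adjusted p = 0.436).

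**Figure D4:**
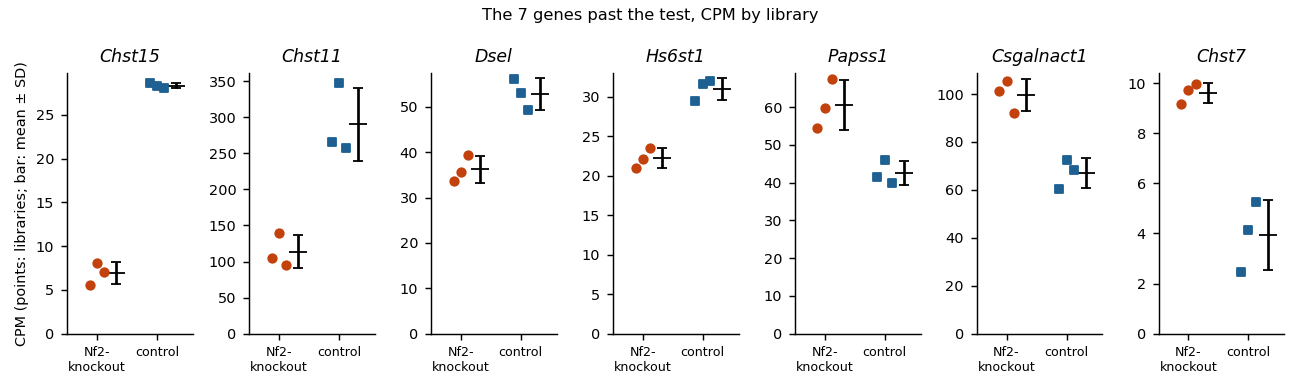
CPM of the 7 genes that passed the test in each Nf2-knockout library (circles, left) and each control library (squares, right), with mean ± SD (n = 3 each). The groups are apart for all 7, by the widest margin for Chst15 (6.90 ± 1.25 against 28.3 ± 0.288 CPM) and Chst11.

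The promoters of Chst15, Chst11 and Chst7, the 3 members called with a change of at least 2-fold, are shown because YAP, the coactivator held in check by merlin and the Hippo kinases, binds DNA through TEAD factors, whose core site reads GGAATG. RefSeq promoter windows (GRCm38.p6, 250 bases before to 50 bases from the annotated start) matched 32 of the 42 members, in 41 windows. The 10 without an entry are Xylt1, Csgalnact1, Chsy3, Ext1, Extl3, Ndst1, Sulf1, Slc26a2, Has2 and Has3. Sequences are written 5′ to 3′ on the strand of the gene in lower case. The single capital, after the first 250 bases, is the annotated first transcribed base, and a run of 6 capitals is GGAATG or its reverse complement CATTCC. They are Chst15 at chr7:132317179-132317478 (minus strand), Chst11 at chr10:82985247-82985546 (plus strand) and Chst7 at chrX:20059320-20059619 (plus strand).
Chst15: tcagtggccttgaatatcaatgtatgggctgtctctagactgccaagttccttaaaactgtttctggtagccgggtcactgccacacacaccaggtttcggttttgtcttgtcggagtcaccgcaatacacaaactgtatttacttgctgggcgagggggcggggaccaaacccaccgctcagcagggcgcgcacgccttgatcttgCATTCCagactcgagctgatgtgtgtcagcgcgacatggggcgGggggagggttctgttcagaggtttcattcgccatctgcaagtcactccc
Chst11: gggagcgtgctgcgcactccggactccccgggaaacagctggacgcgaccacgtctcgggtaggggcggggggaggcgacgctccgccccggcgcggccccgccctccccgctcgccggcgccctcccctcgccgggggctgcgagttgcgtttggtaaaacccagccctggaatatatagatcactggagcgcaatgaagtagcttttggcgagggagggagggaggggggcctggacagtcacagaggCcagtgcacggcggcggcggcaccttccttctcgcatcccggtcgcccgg
Chst7: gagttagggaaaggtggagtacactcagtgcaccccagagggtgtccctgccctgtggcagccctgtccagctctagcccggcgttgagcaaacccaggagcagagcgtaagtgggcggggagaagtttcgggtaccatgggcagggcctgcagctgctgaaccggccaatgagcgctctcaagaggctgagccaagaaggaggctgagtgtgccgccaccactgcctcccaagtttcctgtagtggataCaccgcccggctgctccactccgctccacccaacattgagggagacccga

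Chst15 is the only one of the 3 with a match, CATTCC, which begins 43 bases before the start. A second annotated Chst15 start lies downstream, and its window, which overlaps the printed one, holds the same match. Chst11 and Chst7 have no match in the printed windows, and Papss1, Dsel and Hs6st1 have none in theirs. Among all members with a window, 7 hold at least 1 match in 8 of 41 windows (19.5%), where 14.7% of all 32851 windows do. The others, with 10 bases on each side, are listed to show where they lie.
B4galt7, 140 bases before the start: gctgaccgtaGGAATGctgcgatgat
Ext2, 66 bases before the start: gccccgaacgGGAATGctcacgtgcg
Hs6st2, 3 bases before the start: cctgaaggggGGAATGgcactgcctg
Ndst2, 217 bases before the start: tctttttgccCATTCCcttggggagc
Papss2, 132 bases before the start: agccagaagaGGAATGgcagggttcc
Papss2, 1 base before the start: ttctcttcccCATTCCcattcacacc
Sulf2, 26 bases after the start: ctttctttccCATTCCcggcccatgt
None of these 6 genes passed the test. Papss2, Hs6st2 and Sulf2 each have a further window without a match. For Papss2 both matches lie in the window of an annotated start inside the gene (chr19:32620005), and the window of the start at chr19:32595715 has none. The AP-1 site TGANTCA, searched likewise, was found in 1 of the 41 windows (2.44%), that of Csgalnact2, and in 7.81% of all windows. The median share of G and C was 65.3% in the member windows and 52.7% in all windows. Its part in the shares of matches was not tested. A match is a run of letters and not evidence of binding.

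The enzymes that start and extend heparan differed little. Ext1 and Ext2, the subunits of the heparan polymerase whose human mutations cause multiple osteochondromas, had log2 fold changes of −0.073 (SE 0.0779) and 0.30 (SE 0.0929). Ext2, the most abundant of the step, had 14.6, 16.0 and 15.8 FPKM in Nf2-knockout and 10.7, 12.6 and 11.9 FPKM in control libraries. All 3 Nf2-knockout values lie above the controls, and the gene did not pass (adjusted p = 0.0962 in edgeR and 0.0761 in DESeq2), although limma-trend on FPKM called it. Ext1 was among the steadiest members, at 8.15 ± 0.0729 FPKM against 7.99 ± 0.381 FPKM. Extl3, which adds the N-acetylglucosamine that commits the chain to heparan, stood at 8.055 ± 0.45 FPKM against 7.75 ± 0.109 FPKM. Extl2, which can cap the linker, stood at 13.2 ± 0.579 FPKM against 13.8 ± 0.471 FPKM (log2 fold change −0.17, adjusted p = 0.27). edgeR and DESeq2 each called 0 of the 4 genes, and 1 had an unadjusted p under 0.05 in edgeR, where 24.8% of all tested genes did. The signs for Ext1 and Extl3 turned positive on the FPKM scale. There limma-trend gave a median log2 fold change of 0.093 over all genes, against −0.010 in edgeR.

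Among the enzymes that modify heparan, 1 of 9 tested fell and none rose in edgeR, where 9.29% of all tested genes changed. Of the 9, 3 had an unadjusted p under 0.05, where 24.8% of all tested genes had one. Hs6st1 (chromosome 1, 36068400 to 36106446, plus strand, GRCm38), a heparan 6-O-sulfotransferase, had 3.51, 3.69 and 3.996 FPKM in Nf2-knockout and 4.62, 4.96 and 4.97 FPKM in control libraries. The groups are apart, and the fall was small (log2 fold change −0.48, SE 0.0993, adjusted p = 0.0291). The call was lost without any 1 library (adjusted p from 0.0538 to 0.114) and in limma-trend on FPKM (0.0545). Its paralog Hs6st2 had 3.27, 2.41 and 3.96 FPKM against 2.35, 1.81 and 2.36 FPKM (log2 fold change 0.46, SE 0.199, adjusted p = 0.205). The share of Hs6st1 in the pair was 54.1% ± 5.52 in Nf2-knockout and 69.1% ± 3.68 in control libraries (exact two-sided permutation test p = 0.1, the smallest it allows).

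Ndst1, the N-deacetylase and N-sulfotransferase that starts heparan modification and the most abundant of this step, had 13.99, 13.05 and 10.8 FPKM in Nf2-knockout and 12.3, 12.7 and 11.1 FPKM in control libraries. The groups overlap (log2 fold change −0.031, adjusted p = 0.908). Its annotated span shares 1553 bases with Rps14 on the other strand. Ndst2 had 4.06 ± 0.261 FPKM against 4.97 ± 1.19 FPKM (log2 fold change −0.39, adjusted p = 0.254). Hs2st1, the 2-O-sulfotransferase, had 6.75, 7.33 and 6.67 FPKM in Nf2-knockout and 8.08, 8.06 and 7.90 FPKM in control libraries. The controls were almost equal and all lay above the Nf2-knockout values, yet the log2 fold change of −0.31 (SE 0.0823) stayed above the threshold (adjusted p = 0.0603). The epimerase Glce stood at 3.31 ± 0.259 FPKM against 2.97 ± 0.104 FPKM. The 3-O-sulfotransferase Hs3st1, which makes the antithrombin-binding site, stood at 1.29 ± 0.166 FPKM against 1.73 ± 0.2 FPKM (log2 fold change −0.51, adjusted p = 0.187). Hs3st3a1 and Hs3st3b1 were below 0.5 FPKM in every library, and since their sulfotransferase domains are nearly alike, reads may have been split between them.

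The extracellular sulfatases, which remove 6-O-sulfate from finished heparan chains, were abundant and did not pass. Sulf1 had 16.5, 20.3 and 16.04 FPKM in Nf2-knockout and 11.3, 13.1 and 14.2 FPKM in control libraries, with all Nf2-knockout values above the controls (log2 fold change 0.35, SE 0.133, adjusted p = 0.156). Sulf2 had 28.2, 27.05 and 34.3 FPKM in Nf2-knockout and 26.6, 21.01 and 26.5 FPKM in control libraries (log2 fold change 0.17, SE 0.131, adjusted p = 0.485). Sulf2 exceeded Sulf1 in each library, by 1.33 to 2.14 times in Nf2-knockout and 1.601 to 2.35 times in control libraries. edgeR and DESeq2 each called 0 of the pair, and 1 of them had an unadjusted p under 0.05 in edgeR, where 24.8% of all tested genes did.

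Of the 3 genes of sulfate supply, 1 rose and none fell in edgeR, and DESeq2 called 2. The shares over all genes that each tested were 9.29% in edgeR and 12.8% in DESeq2. The PAPS synthases make the sulfate donor. Papss1 (chromosome 3, 131564768 to 131643671, plus strand, GRCm38) had 16.5, 18.1 and 20.8 FPKM in Nf2-knockout and 11.9, 13.1 and 11.3 FPKM in control libraries, with the groups apart. Its counts rose 1.43-fold (log2 fold change 0.51, SE 0.113, adjusted p = 0.0354), a call lost without any 1 library (adjusted p from 0.0556 to 0.113). Papss2, the form whose loss stunts growth in brachymorphic mice, had 10.5, 11.3 and 8.18 FPKM in Nf2-knockout and 6.22, 7.10 and 6.66 FPKM in control libraries. Its difference of 0.49 on the log2 scale (SE 0.145) was of like size and missed the threshold in edgeR (adjusted p = 0.0878), while DESeq2 called it (adjusted p = 0.0327), as did edgeR without Nf2-knockout replicate 3 (adjusted p = 0.0452). Papss1 stood above Papss2 in each library. The sulfate transporter Slc26a2, mutated in human diastrophic dysplasia, had 2.06, 2.20 and 1.96 FPKM in Nf2-knockout and 1.797, 2.14 and 1.504 FPKM in control libraries, and the groups overlap (log2 fold change 0.093, SE 0.144, adjusted p = 0.75).

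The hyaluronan synthases were scarce, and none passed the test. Has2, the main synthase of developing limbs in mice, gave 39, 161 and 122 counts in the Nf2-knockout libraries, against 261, 47 and 194 in the controls, which is 0.161, 0.557 and 0.406 FPKM against 0.906, 0.178 and 0.689 FPKM. The low libraries are Nf2-knockout replicate 1 and control replicate 2. The log2 fold change of −0.76 had an SE of 0.648 (adjusted p = 0.537). Has1 had 12, 22 and 52 counts against 99, 39 and 49 counts (log2 fold change −1.25, SE 0.598, adjusted p = 0.253), and Has3 had 24, 16 and 0 counts against 38, 15 and 13 counts (log2 fold change −0.70, SE 1.2). edgeR and DESeq2 each called 0 of the 3, and 0 had an unadjusted p under 0.05 in edgeR, where 24.8% of all tested genes did. Changes of Has1 or Has2 of about the sizes fitted were not detectable against the spread between these libraries.

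Other genes of glycosaminoglycan metabolism give the setting, and beside each count stand the 9.29% of all tested genes that changed. Of 11 genes that make the nucleotide sugars, 3 rose and 2 fell (median log2 fold change 0.11). Uap1, which makes UDP-N-acetylhexosamines, rose by 0.60 on the log2 scale (a call that held in 5 of 6 fits without 1 library), and Ugdh, which makes UDP-glucuronic acid, by 0.46 (1 of 6 fits). Gfpt1 and Gfpt2, which feed fructose 6-phosphate into the hexosamine pathway, fell by 0.58 (2 of 6 fits) and 0.65 (0 of 6 fits). Gfpt2 was named after its value was seen. Of 12 Golgi transporters and genes of PAPS recycling, edgeR and DESeq2 called 0, and 1 had an unadjusted p under 0.05 (median −0.00018). Of 8 tested genes of other chain assembly, Pxylp1, the phosphatase that removes the transient phosphate from the linker xylose, rose by 1.16 (1 of 6 fits, median of the list 0.028).

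Of 22 tested genes of glycosaminoglycan breakdown, 1 rose and 3 fell (median −0.15). Cemip, which binds and depolymerizes hyaluronan, had 2.63, 4.36 and 4.62 FPKM in Nf2-knockout and 11.4, 15.5 and 13.15 FPKM in control libraries. Each Nf2-knockout value lies below every control value, and the log2 fold change was −1.89 (SE 0.226, adjusted p = 0.00588). The related Cemip2 fell by 1.16 on the log2 scale (adjusted p = 0.00938), and both calls held in each of 6 fits without 1 library. Hgsnat, a lysosomal acetyltransferase of heparan breakdown, fell by 1.013 (5 of 6 fits), and Glb1, the lysosomal beta-galactosidase, rose by 0.39 (0 of 6 fits). Of 26 tested core proteins and partners, 3 rose and 4 fell (median −0.16). The heparan sulfate carriers Gpc4 and Gpc1, glypicans of the cell surface, went in opposite directions (1.013 and −1.24), the chondroitin sulfate carrier Cspg4 rose by 1.08, and each of these calls held in 6 of 6 fits. Sdc2, a syndecan, fell by 0.82 (5 of 6 fits). Cspg4 is also in the pericyte list, whose sum was higher in Nf2-knockout libraries, and its part in that result was not tested.

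**Figure D5:**
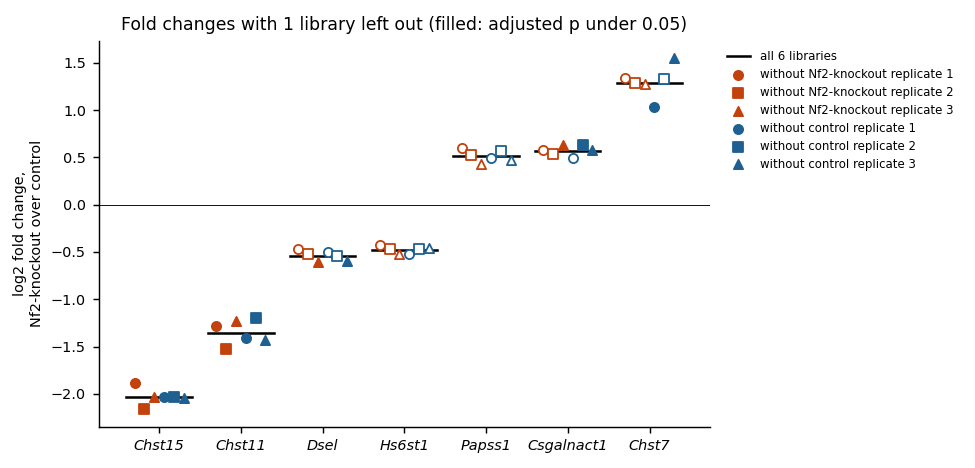
Log2 fold changes (Nf2-knockout over control) of the 7 genes that passed with all 6 libraries (black lines) and with 1 library left out (symbols, filled where the adjusted p stayed under 0.05). Chst15 and Chst11 are filled in all 6 fits, and Hs6st1 and Papss1 in none, while every value keeps its sign.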

How the data were processed

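Tools named without roles in the submitters' processing notes are StringTie 1.3.4d, HISAT2 2.0.4, edgeR and cutadapt 1.9, and no source used here gives the genome build. The authors deposited whole-number counts and FPKM values for each library and gene. How the counts were made, and whether strand was used, is not stated. In the deposited FPKM each count of 0 is written as 0.0001. Positions equal GENCODE M21 (GRCm38) for 94.2% of the 55141 genes found there and for 39 of the 42 members, so positions are given as GRCm38.

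Groups and replicate numbers came from the sample titles. The test was edgeR 4.0.16 (R 4.3.3, filterByExpr, TMM, glmQLFit and glmQLFTest on group) over all 18218 tested genes, two-sided, threshold 0.05, with a prior count of 0.125 in fold changes. SE is approximate, being the size of the log2 fold change divided by the root of F. CPM uses TMM-scaled library sizes. The scripts were tested on simulated data. Alternatives were DESeq2 1.42.0, its size factors, no filter, limma-trend (limma 3.58.1) on log2(FPKM + 0.1) for genes of at least 0.5 FPKM in 3 libraries, log2(FPKM + 1), a filter of 0.01 FPKM in 1 library, a replicate block, and leaving out each library.

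The members and gene lists were chosen with earlier results of these data known. Values in every library are given for each member that passed the test, for the most abundant of each step and for all members of the sulfatase, sulfate supply and hyaluronan steps, with further members shown after their values were seen. From other lists, at most the 4 called genes with the smallest p are named, and 1 of these is not reported here. RefSeq promoter windows are those of GRCm38.p6.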

Additional observations from a re-analysis of the deposited data

How the results depend on the processing

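Chst15 and Chst11 stayed lower and past the threshold under each of the 13 alternatives, and none of the 7 changed members turned its sign under any of them. Members called higher numbered 5 with limma-trend at either pseudocount (7.67% and 7.79% of all genes) and 1 with the replicate block (2.14% of all genes). Without 1 library they numbered 0 to 2 (3 with all), where 1.64% to 3.04% of all genes were called higher. The 0 came without Nf2-knockout replicate 1 or 2, where edgeR had 6 higher at an unadjusted p under 0.05. With all 6 libraries, 24.8% of all tested genes had such a p in either direction. Members called lower numbered 2 with limma-trend under the weaker filter (1.65% of all genes). Without 1 library they numbered 2 to 3 (4 with all), where 1.7% to 3.75% of all genes were called lower. All called genes numbered 2593 with DESeq2, 923 with the replicate block and 629 to 1186 without 1 library, against 1693. Called genes of the 6 other pathway lists numbered 19, and 9 to 18 without 1 library. Whether same-numbered libraries belong together is not given in the labels. Deviations of same-numbered libraries correlated at −0.09, 0.030 and 0.023, and those of differently numbered libraries at −0.14 to 0.12. With 3 libraries in each group these values cannot settle a pairing, and the block was kept as an alternative only. With the block, edgeR called Csgalnact1 higher and Chst11, Chst15 and Chsy1 lower. Chst7, Papss1, Dsel and Hs6st1 were then not called (adjusted p from 0.0532 to 0.0855). On the FPKM scale, with either pseudocount or filter, some log2 fold changes turned positive. They were those of Ext1 (0.029, 0.026 and 0.029), Extl3 (0.053, 0.048 and 0.053) and Ndst1 (0.062, 0.059 and 0.062). Over all genes, the median log2 fold change in the same FPKM fits was 0.093, 0.072 and 0.070, against −0.010 in edgeR. Leaving out 1 library turned the sign of members near 0, with ranges of −0.37 to 0.013 for Xylt1, −0.063 to 0.091 for Xylt2, −0.34 to 0.32 for Chpf, −0.015 to 0.23 for Chpf2, −0.10 to 0.083 for Ndst1, −1.14 to 0.35 for Hs3st3a1 and −0.021 to 0.23 for Slc26a2. None of these passed in any of those fits. The causes were not tested. Among the members under 1 FPKM, the SE of the log2 fold change ran from 0.198 for Chsy3 to 1.2 for Has3, and Ndst3 was too low to test.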

Other observations

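Keratan sulfate is a further sulfated glycosaminoglycan. Of 10 tested genes of its synthesis, 0 rose and 2 fell in edgeR (median log2 fold change −0.15), where 9.29% of all tested genes changed. An unadjusted p under 0.05 was found for 5 of the 10, where 24.8% of all tested genes had one. DESeq2 called 3, where it called 12.8% of all the genes it tested. Chst2, a sulfotransferase that adds 6-O-sulfate to N-acetylglucosamine, had 5.85, 8.62 and 7.12 FPKM in Nf2-knockout and 15.2, 16.45 and 20.8 FPKM in control libraries. Its groups are apart, with a log2 fold change of −1.38 (SE 0.178, edgeR adjusted p = 0.00766). Fut8, which adds core fucose to N-glycans, had 3.98, 5.24 and 4.20 FPKM against 8.42, 7.66 and 7.76 FPKM (log2 fold change −0.93, adjusted p = 0.00828). Both calls held in each of 6 fits that left out 1 library.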
